A study of Mus musculus with 10 samples.

Results

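The genes described are the cytochrome P450 genes, taken as every gene whose only symbol in the array's annotation is Cyp followed by a digit, with the sterol demethylase gene Cyp51 left out. They number 72 of the 18193 genes with a probe set of 1 symbol, and each is represented by its brightest probe set over 10 arrays. RNA came from BMEL cells, a bipotential cell line of embryonic mouse liver, able to acquire hepatocyte or bile duct traits. In the antisense group (5 arrays) cells received an LNA (locked nucleic acid) oligomer against miR-30a, and in the scrambled group (5 arrays) a scrambled control oligonucleotide. Both transfections used Oligofectamine, so no array shows cells without an oligonucleotide, and the labels do not say whether the 5 arrays of a group came from separate cultures. The p-values then measure no more than how these samples differ among themselves, which may be technical.

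Cytochrome P450 enzymes are heme proteins that use molecular oxygen and electrons from a reductase to oxidise lipophilic substrates. Families 1 to 3 oxidise mainly drugs and other foreign compounds, family 4 hydroxylates fatty acids and eicosanoids, and the remaining families make or clear sterols, bile acids, steroid hormones, vitamin D and retinoic acid. Adult hepatocytes are the richest source of many of them, and several, such as Cyp7a1, Cyp2e1 and Cyp3a11, mark mature liver. The microRNA that the antisense oligonucleotide was directed against has the mature sequence below in RefSeq (GRCm38.p6, chr1:23272274-23272295, plus strand), shown because it is the intended target of the treatment, with the seed, bases 2 to 8, in capitals.
mmu-miR-30a-5p: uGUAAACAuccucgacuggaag

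Few of the P450 genes gave a signal above the dim range of the array. Of the 72, 21 had a mean at or above 4.559 on the log2 scale, the level below which 40% of all probe sets fall, while 69.4% of all genes did. Roles were assigned by gene symbol, with families 1 to 3, apart from Cyp2r1, placed under drug and xenobiotic oxidation. Genes of that class were above the level in 12 of 42 cases, and fatty acid and eicosanoid genes in 3 of 13. Sterol and bile acid genes were above it in 2 of 6 cases and steroid hormone genes in 1 of 5. Both retinoic acid genes, Cyp26a1 and Cyp26b1, were above it, as was Cyp20a1, whose role is not assigned, and none of the 3 vitamin D genes was. Signals of different probe sets depend on the probes and do not rank transcripts, so a gene is placed here only above or below the filter, and its level is compared between groups. The line of the filter fell between Cyp2d26 (mean 4.77), Cyp2d13 (4.71) and Cyp2u1 (4.58), just inside, and Cyp17a1 (4.54), Cyp2c70 (4.53) and Cyp1a1 (4.51), just outside.

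**Figure D1:**
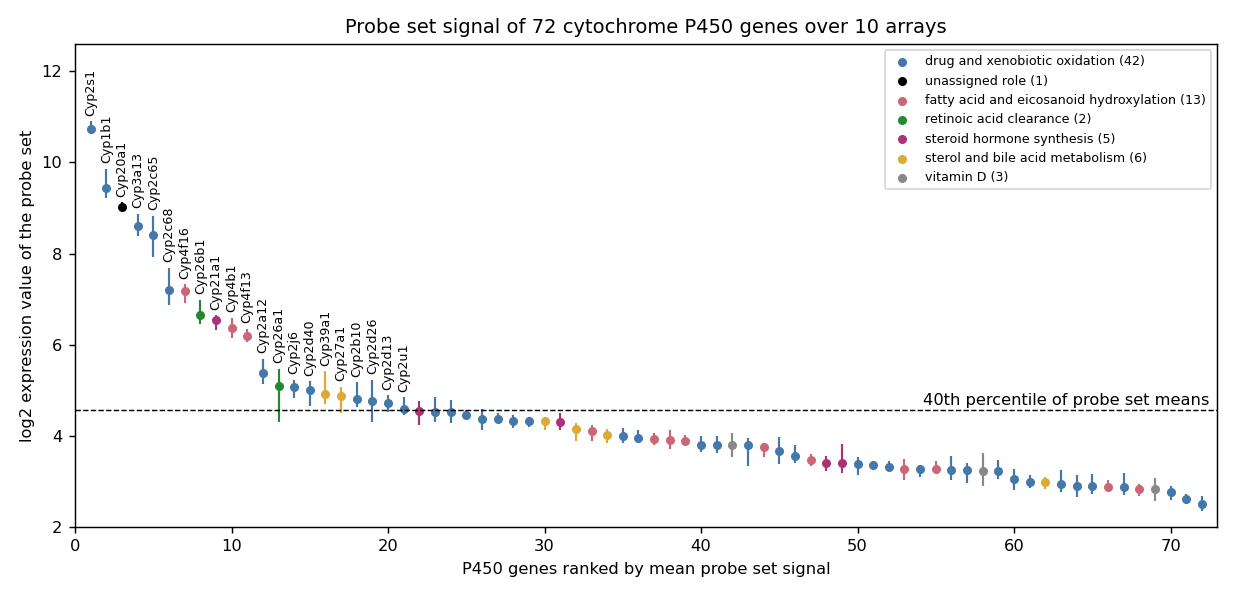
Log2 probe set signal (vertical axis) of the 72 P450 genes ranked by their mean over 10 arrays (horizontal axis), coloured by role. Points are means, vertical lines run from the lowest to the highest array, and the dashed line at 4.559 is the 40th percentile of probe set means, which 21 genes reach.

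Several P450 genes that mark mature hepatocytes were below the filter. Cyp7a1, the rate-limiting enzyme of bile acid synthesis, averaged 4.05 in antisense and 4.23 in scrambled arrays. Cyp2e1, which oxidises ethanol, averaged 4.38 and 4.36, and Cyp3a11, a major drug oxidase of mouse liver, 2.93 and 2.86, in antisense and scrambled arrays. Cyp1a2 (4.33 antisense and 4.33 scrambled), Cyp2c29 (3.23 and 3.28), Cyp8b1 (4.05 and 3.99) and the aryl hydrocarbon receptor target Cyp1a1 (4.53 and 4.50) were also below the filter. The 12 other mature hepatocyte markers with a probe set were split, with G6pc, Pck1, Cps1, Tdo2, Arg1 and Ass1 below the filter and Alb, Ttr, Apoa1, Apob, Tat and Fah above it. Alb averaged 4.70 in antisense and 4.73 in scrambled arrays and Tat 4.69 and 4.68, both just above the filter. Apob averaged 9.43 and 9.28. Of 13 hepatoblast and liver epithelium markers 11 were above the filter, among them Hnf4a, Krt19, Afp and Epcam, and Dlk1 and Prox1 were below it.

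Between the groups, 2 of the 21 P450 genes passed the test, both lower with the antisense oligonucleotide: Cyp2c68 and Cyp4b1. The test was limma over 12633 genes with Benjamini-Hochberg adjustment and a threshold of 0.05, which called 0.372% of all genes lower, 1.16% higher and 1.53% in either direction. The arrays of both groups carry the replicate numbers 1 to 5. After group means were subtracted, same-numbered arrays correlated at 0.112 to 0.377, and arrays of different number at -0.312 to 0.231. These ranges overlap, so the pairing is uncertain. With the number as a block, 5 of the 21 passed, namely Cyp2c65, Cyp2c68, Cyp2d26 and Cyp4b1, which fell (1.04% of all genes fell), and Cyp26b1, which rose (2.0% of all genes rose), against 3.05% of all genes in either direction. All changes were small, and no member reached a 1.5-fold difference.

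**Figure D2:**
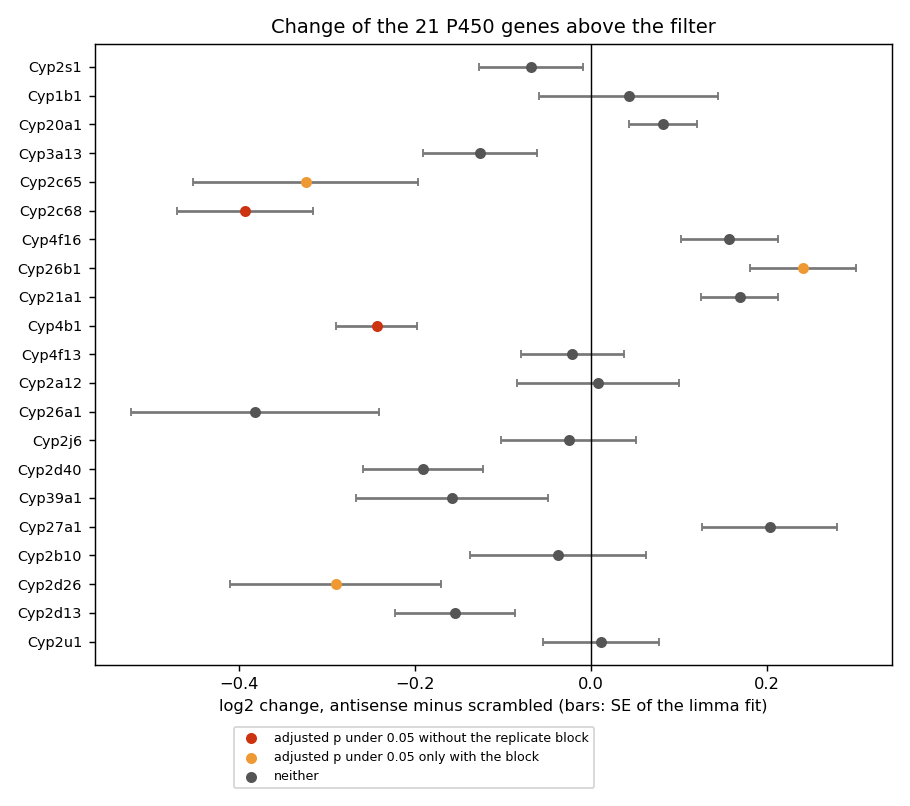
Log2 change, antisense minus scrambled (horizontal axis), of the 21 P450 genes above the filter, in order of signal, with the SE of the limma fit as bars. Colours mark an adjusted p under 0.05 without the replicate block (Cyp2c68 and Cyp4b1) or only with it (Cyp2c65, Cyp2d26 and Cyp26b1), and the changes run from -0.39 to 0.24.

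Over the 21 genes the median log2 change was -0.04, with 13 members below 0, while over all genes tested it was 0.01 and 44.9% were below 0. The median size of the change was 0.157 for the P450 genes and 0.0469 for all genes, with median standard errors of 0.0683 and 0.0533. An unadjusted limma p under 0.05 was found for 11 of the 21, against 12.9% of all genes tested. The antisense array was the lower one in all 5 same-numbered pairs for 5 members (6.71% of all genes) and the higher one in all 5 pairs for another 5 (10.6% of all genes). Groups without overlap were found for 5 members, Cyp2c68 and Cyp4b1 (antisense lower) and Cyp26b1, Cyp21a1 and Cyp4f16 (antisense higher), while 3.92% of all genes had groups apart, 1.18% with antisense lower and 2.74% with antisense higher.

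Cyp2c68, a member of the Cyp2c family of drug and arachidonic acid oxidases, had log2 values of 7.01, 6.88, 7.03, 6.94 and 7.10 in antisense replicates 1 to 5, against 7.35, 7.28, 7.24, 7.36 and 7.69 in scrambled replicates 1 to 5. Every antisense array lay below every scrambled array, and scrambled replicate 5 stood above the rest. The log2 change was -0.39 (SE 0.077, limma adjusted p = 0.0251, and 0.0106 with the replicate block), or 76.2% of the scrambled level on the linear scale. Cyp2c68 missed the threshold on leaving out antisense replicate 2 (adjusted p = 0.0542), 3 (0.0566) or 4 (0.0768) or scrambled replicate 1 (0.0513) or 4 (0.0531), and without scrambled replicate 5 the change was -0.32 (adjusted p = 0.0127).

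Cyp2c65, a family member known for expression in the intestine, had values of 8.39, 7.92, 8.32, 8.05 and 8.53 in antisense replicates 1 to 5, against 8.75, 8.38, 8.62, 8.24 and 8.83 in scrambled replicates 1 to 5. The groups overlapped, but each antisense array was below the scrambled array of its number. The log2 change was -0.32, with SE 0.13 and a limma adjusted p of 0.290, or SE 0.043 and 0.0106 once the block was added. Another gene of the cluster, Cyp2c55, named after its values were seen, was below the filter, with 3.66, 3.41, 3.53, 3.38 and 3.41 in antisense replicates 1 to 5 and 3.97, 3.98, 3.85, 3.75 and 3.61 in scrambled replicates 1 to 5. Its groups overlapped by 1 array on each side and its change was -0.35 (SE 0.076, limma adjusted p = 0.0546 with no filter).

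All 3 genes lie in the Cyp2c cluster of chromosome 19, whose members are close copies of each other. No probe set with 1 symbol was used for Cyp2c40, Cyp2c66, Cyp2c67 or Cyp2c69, and whether the Cyp2c65 and Cyp2c68 probe sets also read these neighbours was not tested. The promoters of Cyp2c65 (chr19:39060756-39061055, plus strand) and Cyp2c68 (chr19:39741052-39741351, minus strand), 250 bases before to 50 after the start in RefSeq (GRCm38.p6), are shown because these genes were both lower in every same-numbered antisense array. Capitals mark AAAGTCC, the core of a binding sequence for the hepatocyte factor Hnf4a, searched on both strands.
Cyp2c65: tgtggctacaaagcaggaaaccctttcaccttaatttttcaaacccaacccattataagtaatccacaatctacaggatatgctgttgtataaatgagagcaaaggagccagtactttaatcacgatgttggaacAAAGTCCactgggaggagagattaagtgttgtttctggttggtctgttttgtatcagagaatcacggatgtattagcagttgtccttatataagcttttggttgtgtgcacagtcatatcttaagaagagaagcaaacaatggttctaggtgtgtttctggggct
Cyp2c68: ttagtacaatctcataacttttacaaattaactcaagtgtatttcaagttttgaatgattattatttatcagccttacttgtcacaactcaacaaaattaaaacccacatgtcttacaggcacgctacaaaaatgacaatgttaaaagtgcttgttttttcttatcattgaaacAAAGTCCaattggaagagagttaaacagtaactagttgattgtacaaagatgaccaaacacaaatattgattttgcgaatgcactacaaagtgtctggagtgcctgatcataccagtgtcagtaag
The motif was present once in each promoter, at position -115 from the start of Cyp2c65 and at -76 for Cyp2c68, and in 4.21% of all 32851 promoters in the table. Of the P450 genes, 51 had a promoter in the table and 9 of them held it, among them Cyp8b1 and Cyp3a11, both below the filter. The promoter of Cyp2d26, a gene also lower in every same-numbered antisense array, did not hold it. Aligned end to end, the Cyp2c68 promoter was 91.1% identical to that of Cyp2c69 and 51.4% identical to that of Cyp2c65. The motifs were chosen after these promoters had been read, and a match is a description of the letters only.

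Cyp4b1, a family 4 enzyme that oxidises fatty acids and some foreign compounds and is known mainly from lung, had values of 6.25, 6.14, 6.21, 6.30 and 6.31 in antisense replicates 1 to 5, against 6.59, 6.43, 6.44, 6.46 and 6.52 in scrambled replicates 1 to 5. The groups did not overlap. The log2 change was -0.24 (SE 0.046, limma adjusted p = 0.0208, and 0.0165 with the replicate block), or 84.5% of the scrambled level. It stayed past the threshold in 9 of 10 fits with 1 array left out and missed it without antisense replicate 3 (adjusted p = 0.0634).

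The Cyp2d family, which oxidises many basic drugs, had 3 members above the filter, and all 3 were below 0. Cyp2d26 had values of 4.80, 4.30, 4.65, 4.58 and 4.82 in antisense replicates 1 to 5, against 5.08, 4.57, 4.85, 4.87 and 5.23 in scrambled replicates 1 to 5. The groups overlapped while every antisense array was below its same-numbered partner, and the change was -0.29 (SE 0.12), with a limma adjusted p of 0.321, or 0.0106 once the block was added. Cyp2d40 was at -0.19 (adjusted p = 0.236) and Cyp2d13 at -0.15 (adjusted p = 0.361), and neither passed with the block.

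The remaining genes above the filter that were classed by symbol under drug and xenobiotic oxidation did not pass the test in either fit. Cyp2s1, an extrahepatic enzyme of epithelia, ranged from 10.62 to 10.78 in antisense and from 10.65 to 10.90 in scrambled arrays, a change of -0.07 (SE 0.059). Cyp1b1, which hydroxylates oestrogens and polycyclic aromatic hydrocarbons, ranged from 9.21 to 9.86 in antisense and from 9.23 to 9.60 in scrambled arrays. Its change was 0.04 (SE 0.10), and a second probe set was at -0.003. Cyp3a13, the family 3 gene with a signal above the filter, was at -0.13 (SE 0.065, adjusted p = 0.448) and was lower with antisense in each of the 5 pairs. Without scrambled replicate 5 its change was -0.08. The changes of Cyp2a12 (0.01), Cyp2j6 (-0.02), Cyp2b10 (-0.04) and Cyp2u1 (0.01) were all smaller than their standard errors of 0.092, 0.077, 0.10 and 0.066.

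**Figure D3:**
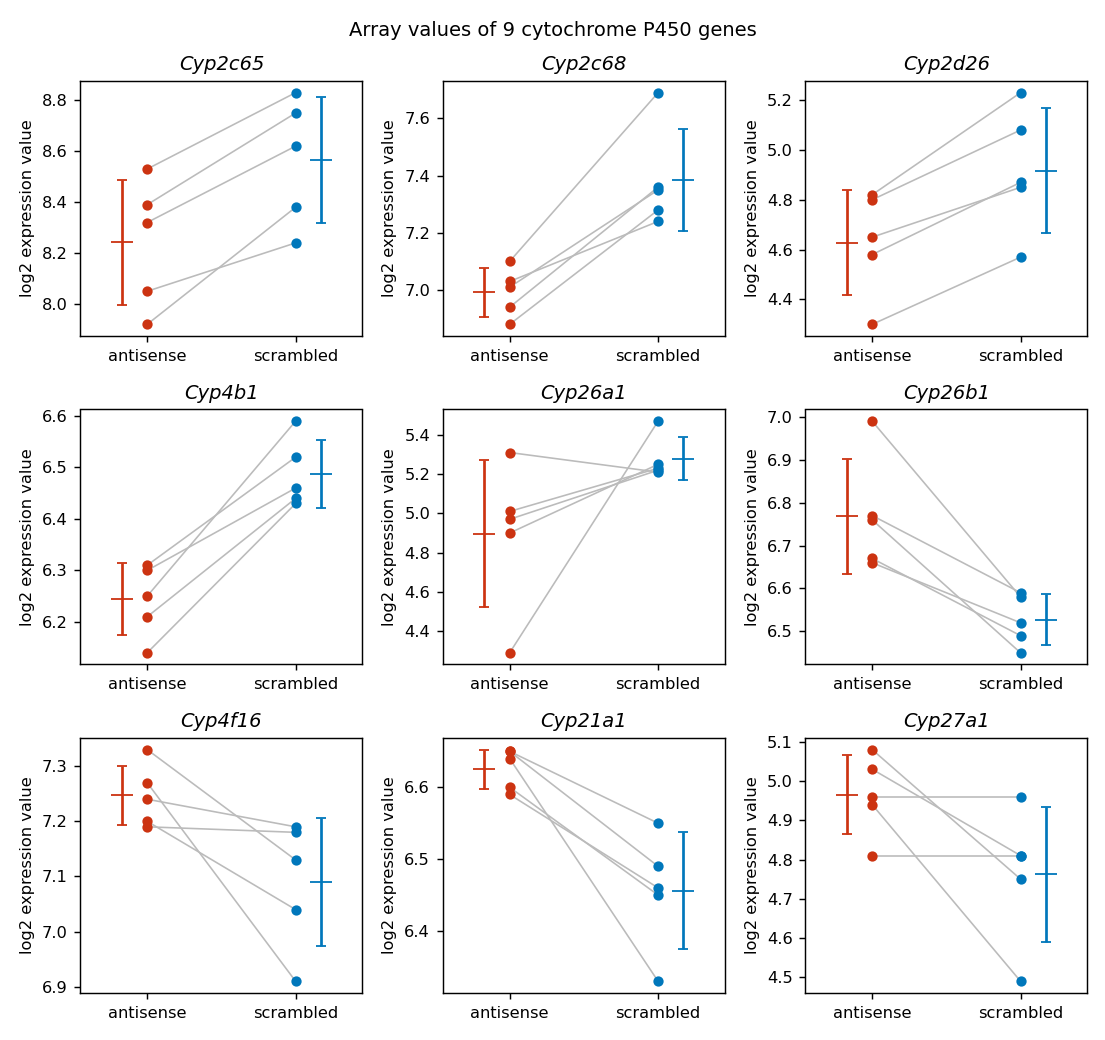
Log2 expression value (vertical axis, scaled for each gene) of 9 P450 genes in the 5 antisense arrays (left) and the 5 scrambled arrays (right), with the mean and SD beside the points. Grey lines join arrays of the same replicate number. Cyp2c68 and Cyp4b1 are lower in every antisense array, Cyp26b1, Cyp21a1 and Cyp4f16 are higher in every antisense array, and Cyp2c65 and Cyp2d26 overlap between the groups but are lower with antisense in each pair.

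The retinoic acid genes, whose products break down this vitamin A hormone, had changes of opposite sign. Cyp26b1 had values of 6.76, 6.99, 6.67, 6.77 and 6.66 in antisense replicates 1 to 5, against 6.45, 6.58, 6.49, 6.59 and 6.52 in scrambled replicates 1 to 5, so that every antisense array was above every scrambled array. The change was 0.24 (SE 0.060), with a limma adjusted p of 0.0711, or 0.0360 once the block was added. Cyp26a1 had values of 4.90, 4.97, 5.01, 4.29 and 5.31 in antisense replicates 1 to 5, against 5.25, 5.22, 5.23, 5.47 and 5.21 in scrambled replicates 1 to 5. Antisense replicate 4 was low, antisense replicate 5 lay inside the scrambled range, and the change of -0.38 (SE 0.14) did not pass (adjusted p = 0.258, and 0.254 with the block). Without antisense replicate 4 the change of Cyp26a1 was -0.23. The difference between the 2 changes was not tested.

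Cyp26a1 is a known direct target of retinoic acid receptors, which bind repeated half-sites spaced by 5 bases. The promoters of Cyp26a1 (chr19:37697558-37697857, plus strand) and Cyp26b1 (chr6:84593761-84594060, minus strand) from RefSeq (GRCm38.p6) are shown to set these genes side by side, with the repeat TGAACTNNNNNTGAACT in capitals for Cyp26a1 and, since Cyp26b1 held no such repeat in this window, TATAAA in capitals for Cyp26b1. Both strands were searched.
Cyp26a1: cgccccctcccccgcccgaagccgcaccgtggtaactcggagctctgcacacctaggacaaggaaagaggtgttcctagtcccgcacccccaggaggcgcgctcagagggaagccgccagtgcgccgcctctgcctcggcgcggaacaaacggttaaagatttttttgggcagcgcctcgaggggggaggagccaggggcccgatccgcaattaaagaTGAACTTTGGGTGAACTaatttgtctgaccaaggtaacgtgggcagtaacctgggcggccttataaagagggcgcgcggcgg
Cyp26b1: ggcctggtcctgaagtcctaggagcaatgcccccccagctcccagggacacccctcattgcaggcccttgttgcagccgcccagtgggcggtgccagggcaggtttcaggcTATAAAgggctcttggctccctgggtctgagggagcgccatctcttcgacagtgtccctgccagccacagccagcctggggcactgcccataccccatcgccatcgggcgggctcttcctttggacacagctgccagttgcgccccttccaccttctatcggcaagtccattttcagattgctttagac
The repeat began at position -32 from the annotated start of Cyp26a1 and was present in 8 of 32851 promoters (0.0244%). Among the 51 P450 genes with a promoter it was found in Cyp26a1 alone. TATAAA was present in 13.6% of all promoters and in those of 21 P450 genes, Cyp26a1 included.

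Of the genes that metabolise sterols and steroid hormones, 3 were above the filter and none passed in either fit. Cyp21a1, the steroid 21-hydroxylase of the adrenal cortex, had values of 6.65, 6.64, 6.60, 6.59 and 6.65 in antisense replicates 1 to 5, against 6.49, 6.33, 6.45, 6.46 and 6.55 in scrambled replicates 1 to 5, with no overlap. The change was 0.17 (SE 0.044, limma adjusted p = 0.0787, and 0.0679 with the block), and a second probe set was at 0.18. A near-identical pseudogene lies beside it in the mouse genome, and which copy the probes read was not tested. Of the markers of steroid-producing cells, Star was at 5.13 in both groups. Nr5a1, Hsd3b1 and Mc2r were below the filter, where a difference may not be detectable. The summed linear signal of the 4 markers was 71.5 to 82.9 in antisense and 73.1 to 84.2 in scrambled arrays. Cyp27a1, the mitochondrial sterol 27-hydroxylase, ranged from 4.81 to 5.08 in antisense and from 4.49 to 4.96 in scrambled arrays (change 0.20, SE 0.077, adjusted p = 0.269), and the oxysterol 7-hydroxylase gene Cyp39a1 was at -0.16 (adjusted p = 0.611). Each was smaller without 1 array: Cyp27a1 was at 0.13 without scrambled replicate 2, and Cyp39a1 at -0.05 without scrambled replicate 1.

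In family 4, Cyp4f16 had values of 7.19, 7.20, 7.24, 7.33 and 7.27 in antisense replicates 1 to 5, against 7.18, 7.04, 7.19, 7.13 and 6.91 in scrambled replicates 1 to 5. Its groups were apart by a narrow margin, and the change was 0.16 (SE 0.055, limma adjusted p = 0.225). A second Cyp4f16 probe set was at 0.26 and one annotated to both Cyp4f37 and Cyp4f16 at 0.31, and with the mean of the probe sets of Cyp4f16 the change was 0.21 (adjusted p = 0.0308). Cyp4f13 was at -0.02. Cyp20a1, of unassigned role, was at 0.08 (adjusted p = 0.402), while its other probe sets were at -0.07 and -0.09, the opposite sign.

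None of the 51 members below the filter had groups that did not overlap, against 1.35% of all genes below it. With no filter, limma called none of these 51 at an adjusted p under 0.05, against 0.252% of all genes below the filter, and 4 of 51 had an unadjusted p under 0.05, against 9.14% of them: Cyp2c55, Cyp7a1 (-0.19), the vitamin D 25-hydroxylase gene Cyp2r1 (-0.21) and Cyp3a16 (-0.15), a family 3 gene of fetal liver. Cyp7a1 was lower with antisense in each of the 5 pairs, but a second probe set was at 0.02. At this signal a difference may not be detectable.

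Single arrays stood at the edge of their group for many members. Antisense replicate 2 was the lowest antisense array for 9 of the 21 genes (28.0% of all genes) and scrambled replicate 5 the highest scrambled array for 10 (21.9% of all genes). Leaving out both together, an alternative chosen after seeing the data, left 1 call, Cyp2c68 (change -0.29, limma adjusted p = 0.0195), while Cyp4b1 was at -0.21 (0.0695). Without these 2 arrays the changes of Cyp2c65, Cyp2d26 and Cyp3a13 were -0.18 (limma adjusted p = 0.577), -0.13 (0.623) and -0.04 (0.805), in the fit with no block. For each of these genes the arrays left out were the lowest antisense and the highest scrambled one. A smaller change was therefore fixed by the choice of arrays and says nothing of their quality. The choice also leaves scrambled replicate 2 and antisense replicate 5 without their same-numbered arrays. The thyroid hormone carrier gene Ttr, a mature hepatocyte marker named after its values were seen, was lower with antisense in all 5 pairs. Its values were 7.91, 6.74, 7.57, 7.58 and 8.30 in antisense replicates 1 to 5 and 8.87, 8.24, 8.54, 8.68 and 9.60 in scrambled replicates 1 to 5. The change was -1.17 (limma adjusted p = 0.0574, and 0.000812 with the block). Without the 2 arrays, again the lowest antisense and the highest scrambled one for this gene, Ttr was at -0.74. The other 5 hepatocyte markers above the filter did not pass in either fit and were split, with Apoa1 at -0.21 and lower in all 5 pairs, Alb at -0.03, Tat at 0.01, Fah at 0.13, and Apob at 0.15 and higher in all 5 pairs. The summed linear signal of the 12 hepatocyte markers was 1600 to 1900 in antisense and 1720 to 2280 in scrambled arrays. The brightest probe sets, Apob (mean 9.36), Fah (9.35) and Ttr (8.20), make up most of that sum. In bulk RNA, fewer cells of a type and less RNA per cell cannot be told apart, and the part of these markers in the P450 results was not tested.

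The other genes of the pathway were described from lists of electron donors, heme synthesis, controlling receptors and conjugating enzymes. Of 59 listed genes 52 had a probe set and 45 were above the filter, and 1 rose and none fell, against 1.53% of all genes tested. With the replicate block 1 rose and 5 fell, against 3.05%, and all 6 were conjugating or other detoxification enzymes. The lists were chosen with earlier results of these data known, so these counts are no test of the lists.

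The measured genes of electron and heme supply, 4 of 6 and 8 of 9 listed, gave no call in either fit. Por, the P450 reductase gene, and Fdxr were not analysed here. The 4 electron donor genes had changes of -0.02 for cytochrome b5, Cyb5a, -0.03 for Cyb5b, 0.05 for the cytochrome b5 reductase gene Cyb5r3 and -0.02 for the ferredoxin gene Fdx1. Of the 8 heme genes, Hmox1, which degrades heme, was at 0.14 (SE 0.19), Ppox at -0.06, Uros at 0.03 and Alad at 0.02. With 1 array left out Hmox1 ranged from -0.0036 (without scrambled replicate 1) to 0.28 (without scrambled replicate 5).

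Of 20 controlling genes 15 were above the filter, and the retinoic acid receptor gene Rarg rose. Rarg had values of 8.38, 8.42, 8.45, 8.48 and 8.45 in antisense replicates 1 to 5, against 8.27, 8.28, 8.25, 8.22 and 8.32 in scrambled replicates 1 to 5. The groups did not overlap, and the change was 0.17 (SE 0.037, limma adjusted p = 0.0402). The call was near the threshold: it was 0.0526 with the replicate block, and with 1 array left out it passed in 2 of 10 fits, with adjusted p up to 0.115. Cebpa, a hepatocyte transcription factor gene, was at -0.25 (adjusted p = 0.158, and 0.0670 with the block) and lower in all 5 pairs, Rxrb at -0.10 and Nr1h3 at -0.09. Hnf4a was at -0.02 (adjusted p = 0.945). Ahr, the receptor that induces Cyp1 genes, was at 0.03. The xenobiotic receptor genes Nr1i2 and Nr1i3 had little signal, with Nr1i2 at 4.68 in both groups and Nr1i3 below the filter.

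Of 18 conjugation and detoxification genes above the filter none passed without the block. Sult1d1, a sulfotransferase gene, had 7.51, 6.73, 7.54, 7.35 and 7.76 in antisense replicates 1 to 5, against 8.13, 7.69, 8.06, 7.80 and 8.44 in scrambled replicates 1 to 5. The groups overlapped, each antisense array was below its partner, and the change was -0.65 (SE 0.18), with a limma adjusted p of 0.0974, or 0.00437 once the block was added. The glutathione transferase gene Gstm1 was at -0.47 (adjusted p = 0.107 without and 0.0106 with the block) and the glucuronosyltransferase gene Ugt2b34 at -0.28 (0.0683 and 0.0213). Named after their values were seen, the monooxygenase gene Fmo5 was at -0.46 (0.186 and 0.0181) and the retinaldehyde dehydrogenase gene Aldh1a1 at -0.31 (0.303 and 0.0119). Gsta2, another glutathione transferase gene, was at 0.32 (0.0738 and 0.00890), the member of this list that rose with the block. Antisense replicate 2 was the lowest and scrambled replicate 5 the highest of their groups for Sult1d1, Gstm1, Ugt2b34, Fmo5 and Aldh1a1. Without these 2 arrays, in the fit with no block, Sult1d1 was at -0.38, Gstm1 at -0.27, Ugt2b34 at -0.19, Fmo5 at -0.26 and Aldh1a1 at -0.15. The controlling gene Cebpa, for which the same arrays were the extremes, was at -0.15. Leaving out the extreme arrays fixes a smaller change in advance and splits 2 same-numbered pairs, so these values say nothing of array quality. With all arrays, each of these genes was lower with antisense in all 5 pairs.

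**Figure D4:**
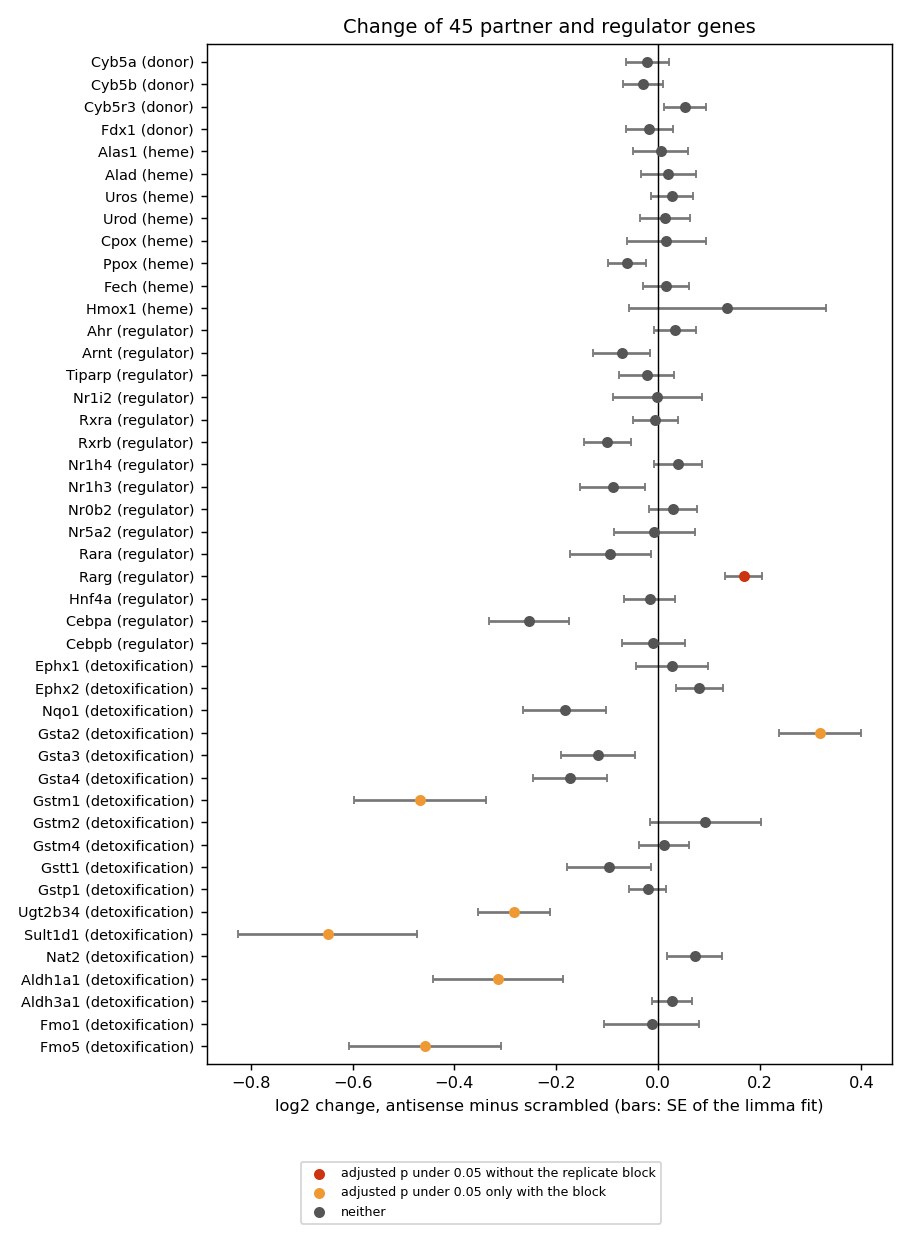
Log2 change, antisense minus scrambled (horizontal axis), of the 45 electron donor, heme, regulator and detoxification genes above the filter, with the SE of the limma fit as bars. Rarg passes without the replicate block, 6 detoxification genes pass only with it, and the donor and heme genes lie near 0 with wide bars for Hmox1.

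Markers of other cell types gave 1 call without the block, the macrophage and lysosome gene Cd68, which rose by 0.39 (limma adjusted p = 0.0176). Of all genes tested, 1.16% were called higher. Of 5 blood and macrophage markers with a probe set, Ptprc and Adgre1 were below the filter, and Csf1r (0.05) and Cx3cr1 (0.07) did not pass. The summed linear signal of the 5 was 180 to 209 in antisense and 168 to 198 in scrambled arrays. Cd68 missed the threshold when antisense replicate 3 (adjusted p = 0.0523) or 4 (0.0551) was left out. Of 6 biliary markers 5 were above the filter and none passed in either fit. Sox9 was at 0.17 (limma adjusted p = 0.0662) and Slc4a2 at 0.14, both higher in all 5 pairs. Krt7 was at 0.02, Krt19 at -0.01 and Aqp1 at -0.14. No mesenchymal (5 of 6 above the filter) or endothelial (3 of 6) marker passed. The sums were 184 to 208 in antisense and 188 to 196 in scrambled arrays for mesenchymal markers. For endothelial markers they were 400 to 460 in antisense and 433 to 479 in scrambled arrays, with Flt1 (mean 8.22) making up most.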

How the data were processed

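The authors deposited 1 log2 value for each probe set on each array, and the sources used here do not give how probes were summarised or arrays normalized. Medians of the 10 arrays ran from 5.21 to 5.24, and no further scaling was applied. The table holds 45101 probe sets, 64 of them array controls, which were left out. In the platform annotation 34945 probe sets had 1 symbol, 932 had more than 1, and 9160 had no entry. Only probe sets with 1 symbol named genes, which left 4 P450 probe sets of several genes out. The 72 P450 genes had 95 probe sets, and 18 genes had more than 1. The brightest probe set by mean over the 10 arrays stood for a gene, and genes with a mean under 4.559 were not tested. The number of arrays limits the precision.

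Antisense and scrambled arrays were compared by two-sided tests in limma 3.58.1 (functions lmFit, then eBayes; R 4.3.3) over 12633 genes, with Benjamini-Hochberg adjustment over all of them. Fold and percent values were computed here from the log2 differences. Groups and replicate numbers came from the sample titles. The main fit did not pair the arrays, and a fit with the replicate number as a block was run beside it. After group means were subtracted, arrays sharing a number correlated at 0.172, 0.377, 0.112, 0.152 and 0.335 over the genes tested. The labels leave the meaning of the number unsaid, so any pairing rests on the values. Arrays of different number gave -0.312 to 0.231, a range that overlaps, so the pairing is uncertain. The block is the replicate number as a term of the fit. The procedure was tested on simulated data.

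The members, the lists and the tests were chosen with earlier results of these data known. Named were P450 genes past the threshold, those with the smallest p, the brightest, those at the filter level and a set of well-known members, and of each pathway list the 4 members with the smallest p and any past the threshold. Alternatives were a replicate block, quantile normalization, median centring, no filter or a 60% filter, the mean of a gene's probe sets, leaving out probe sets that can match several transcripts, another variance model, and leaving out each array in turn. Alignments used Biopython 1.88 and figures matplotlib 3.10.9 in Python 3.11.15.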

Additional observations from a re-analysis of the deposited data

Results flagged for a closer look

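In groups of 5 arrays, a highest or lowest array was noted where its gap to the nearest other array was over 0.71 of the group's range. This held for 7 of 82 groups examined, and chance gives about 1 in 20. Cyp2c68 was at 7.69 in scrambled replicate 5, the next at 7.36. Cyp26a1 was at 5.47 in scrambled replicate 4, the next at 5.25. Cyp3a13 was at 8.39 in antisense replicate 2, the next at 8.57. Cyp39a1 was at 5.01 in antisense replicate 3, the next at 4.81. Cyp2u1 was at 4.85 in antisense replicate 5, the next at 4.54. Cyp2j6 was at 4.83 in scrambled replicate 4, the next at 5.13. Cyb5a was at 12.13 in antisense replicate 2, the next at 12.26.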

How the results depend on the processing

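The count of P450 genes past the threshold was 2 with all arrays, 5 with the replicate block and 3 with the mean of probe sets. It was 1 when leaving out antisense replicate 2 and scrambled replicate 5 together, and 0 to 2 with 1 array left out. The count over all genes was 193, against 385 with the replicate block, 303 with a trended, robust variance, 128 without that pair of arrays, and 92 to 201 with 1 array left out. The count of partner and regulator genes was 1, against 6 with the replicate block, 3 with the trended variance and 2 with a 60% filter. It was 0 with median centring, quantile normalization or no filter, and 0 to 1 with 1 array left out. With the mean of probe sets it was 1, but that gene was Ugt2b34 (limma adjusted p = 0.0477) and Rarg did not pass (0.0664). The median P450 change was -0.0378, and -0.0969 with the mean of probe sets, or -0.0887 to -0.0142 with 1 array left out. The causes were not tested.

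Changes near 0 turned sign. With the mean of probe sets Cyp1b1 was at -0.0410, Cyp20a1 at -0.0268, Cyb5b at 0.0125 and Ppox at 0.0084. Without antisense replicate 2 and scrambled replicate 5 together, Cyp1b1 was at -0.0708, Cyp4f13 at 0.0067, Cyp2j6 at 0.0298, Cyp2b10 at 0.0624 and Cyb5a at 0.0292. With 1 array left out the ranges were -0.0561 to 0.1042 for Cyp1b1, -0.0638 to 0.0112 for Cyp4f13, -0.0542 to 0.0845 for Cyp2a12, -0.0887 to 0.0178 for Cyp2j6, -0.0933 to 0.0522 for Cyp2b10, -0.0531 to 0.0326 for Cyp2u1, -0.0347 to 0.0079 for Cyb5a, -0.0415 to 0.0081 for Fdx1, -0.0036 to 0.2826 for Hmox1 and -0.0207 to 0.0451 for Alad. None of these genes passed the test. Of 760 values of 41 named genes under 19 alternatives, 691 kept their direction and their side of the threshold. Few of these genes had passed with all arrays, so that count says little of how stable the calls were. Of the other values, 23 lost a call, 19 gained one and 27 turned sign.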
